A study of Rattus norvegicus with 18 samples.

Results

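A list of 10 genes of the endothelin, natriuretic and related vasoactive peptide systems was examined in H9c2 cells: Edn1, Ednra, Ece1, Nppa, Nppb, Npr2, Npr3, Adm, Agtr1a and Ace. They were taken by gene symbol from a fixed list, and all 10 were found among the 17455 genes listed in each expression table. H9c2 is a myoblast line from rat heart. The samples were wild-type cells treated with bufalin, cells treated with periplocin and control cells. Each condition had 3 libraries of RNA pulled down with an antibody to m6A, the N6-methyladenosine mark of mRNA, and 3 input libraries, which makes 18 samples in 6 groups. Bufalin, a bufadienolide without a sugar, and periplocin, a cardenolide that carries sugars, are cardiotonic steroids, which block the sodium and potassium pump. Neither dose nor exposure time is in the labels, and nothing there says whether replicates were separate cultures, so p-values measure only the spread between these samples.

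Endothelin-1, the product of Edn1, is made as a longer precursor that the protease Ece1 trims to the active peptide. It acts through the G protein-coupled receptor Ednra, constricts vessels and drives growth of heart muscle cells. The natriuretic peptides of Nppa and Nppb work against it by raising cyclic GMP through the receptor guanylyl cyclase Npr1. Npr2 is a related guanylyl cyclase that prefers C-type natriuretic peptide, while Npr3 clears natriuretic peptides from the fluid around the cell. Adrenomedullin, from Adm, relaxes vessels, and the protease Ace makes angiotensin II, the ligand of the receptor of Agtr1a. In the heart, Nppa, Nppb and Edn1 are commonly read as marks of stress and hypertrophy.

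The deposited tables give 1 value per gene or peak for each compound against the shared control and none per library, so group levels below are means fitted from each table without an SD. Counts are means over libraries after division by size factors, they are not per length, and levels are therefore compared between conditions but not between genes. Folds carry 95% Wald intervals from the authors' standard errors. The sources used here do not name the library kind, pulled-down or input, behind the counts. RNA levels below are the values of the expression tables, and if pulled-down RNA was counted they also carry the mark. The Wald score of the periplocin table is opposite in sign to its fold changes, and changes are read here as treated over control because with that reading of both tables the fitted control means matched within 1% in all 10608 genes compared, after a shared offset. Of the markers of cardiac muscle, 8 of 11 had a mean of at least 10 in the authors' deposited table for bufalin. Tnnt2 stood at 4293, Myl2 at only 17.5 and Pln at 22.3 in the authors' deposited table, while Actc1 and Myl7 were listed at 0. Of the skeletal myoblast and muscle markers 6 of 9 reached it, Myod1 at 716 in the authors' deposited table, while Pax7 and Myf5 were listed at 0. All 6 smooth muscle markers reached it. Of the fibroblast markers 4 of 8 reached it, Col1a1 at 412632 in the authors' deposited table, while Dcn, Lum and Tcf21 were listed at 0.

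Among the ligands, Edn1 RNA was higher with periplocin than in control cells and differed between the compounds. The fitted mean of Edn1 was 1042 normalized counts in periplocin-treated cells and 649 in control cells, a fold of 1.61 (interval 1.35 to 1.91). The authors' deposited table gave it a log2 change of 0.68 ± 0.13 (SE) and, by DESeq2's Wald test with Benjamini-Hochberg adjustment, an adjusted p of 8.17e-05. With bufalin the fitted mean of Edn1 was 557 normalized counts, against 670 in the same control cells on the scale of that table. The fold was 0.831 (interval 0.659 to 1.05), so a change of Edn1 against control was not shown with bufalin. The authors' deposited table gave a log2 change of -0.27 ± 0.17 (SE) and an unadjusted p of 0.117, with no adjusted p for this gene, as those are filled in only above a mean of 2259 normalized counts.

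Set against each other through the shared control, bufalin-treated cells held 0.517 times the Edn1 RNA of periplocin-treated cells (interval 0.421 to 0.635). As a log2 difference, bufalin minus periplocin, this is -0.95 ± 0.15 (SE), with an adjusted p of 4.20e-07 in an approximate Wald test over 10602 genes. When the standard error was instead set to its upper limit, as if the controls were not shared, the 95% interval ran between -1.37 and -0.53 and the adjusted p was 0.0120. In order of level Edn1 thus ran from bufalin through control to periplocin, and the neighbours bufalin and control were not shown to differ. Of genes with a mean of 100 or more, 6 of 9103 had a lower bufalin minus periplocin difference than Edn1, and 24 of 9123 had a larger log2 change with periplocin.

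**Figure D1:**
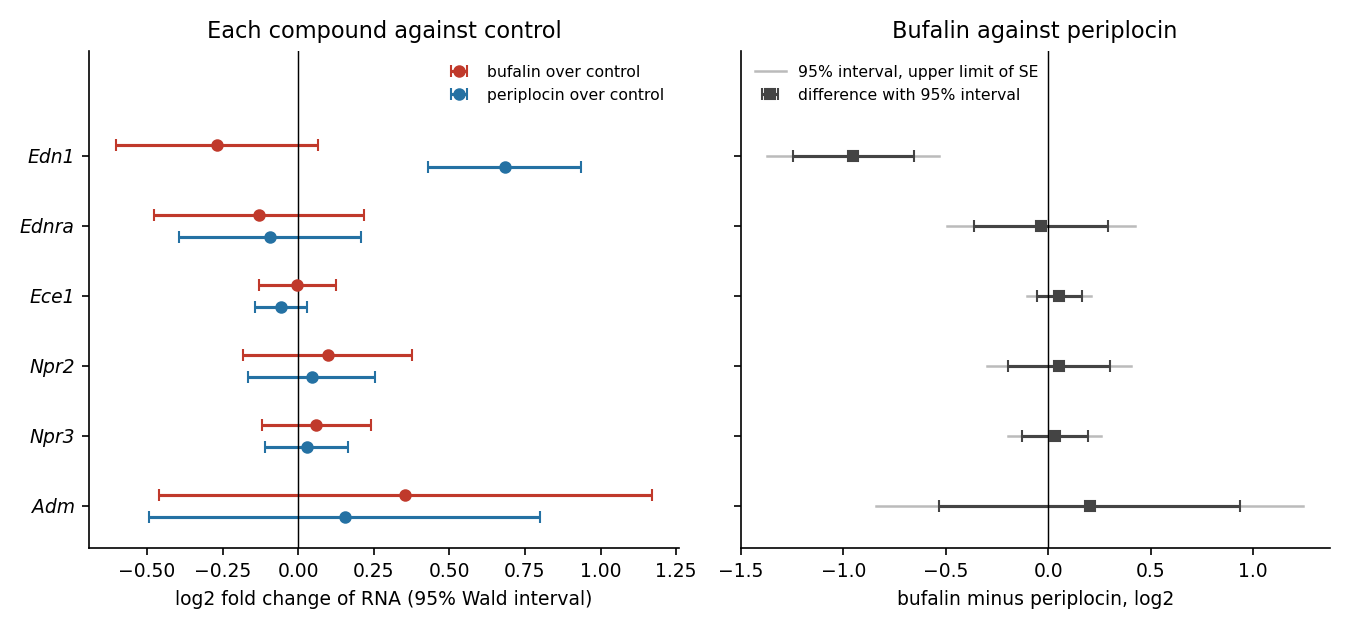
Log2 fold change of RNA for the 6 genes with a mean count of at least 10, each compound over control with 95% Wald intervals (left), and the bufalin minus periplocin difference with its 95% interval and, in grey, the interval from an upper limit of the standard error (right). Edn1 is the 1 gene whose periplocin interval and difference lie clear of 0.

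Vascular endothelium is the best known source of endothelin-1, and its markers were listed at 0 in some cases and had clear counts in others. Tie1 and Vwf had means of 276 and 274 normalized counts in the authors' deposited table for bufalin and Tek one of 12.0. Kdr and Emcn were listed at 0, Pecam1 and Cdh5 had means of 3.89 and 4.52 normalized counts in the authors' deposited table for bufalin, and 3 of 8 markers reached 10. The summed fitted means of the 8 were 502 with periplocin and 585 in control cells, and 540 with bufalin against 604 in control cells, and none was called with either compound by the DESeq2 test, also where p for bufalin was adjusted over every gene with a p-value. In bulk RNA, fewer cells of a type and less RNA per cell cannot be told apart.

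The letters upstream of the Edn1 start are shown because Edn1 is the member whose RNA changed. They come from the RefSeq promoter table of assembly GRCr8, minus strand, chr17:22666788-22666937, and run from -250 to -101 relative to the annotated start. Capitals mark, in this order, a GATA motif (AGATAA, read on the other strand), a hypoxia response core (ACGTG, other strand), TGACTAA, the core of the AP-1 element known from the human endothelin-1 gene, and the letters of a TATA box (TATAAA).
Edn1: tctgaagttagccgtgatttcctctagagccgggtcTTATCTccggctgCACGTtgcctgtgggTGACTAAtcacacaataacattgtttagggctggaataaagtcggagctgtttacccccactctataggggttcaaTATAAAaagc

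Motifs were searched on both strands of the 250 bases before each start, and no 2 matches in the Edn1 window overlapped. The GATA match lay at -214 to -209, the ACGTG match at -201 to -197, the TGACTAA match at -186 to -180 and the TATAAA match at -110 to -105. These positions rest on the annotated start, which was not tested. Over all 33469 promoter entries of the same length, TGACTAA was found in 1.99%, AGATAA in 10.3%, ACGTG in 16.6% and TATAAA in 12.9%. The usual AP-1 letters TGANTCA, found in 6.34% of entries, and the cyclic AMP response letters TGACGTCA, found in 1.59%, did not occur in this window of Edn1. Of the 9 members with a promoter entry, Edn1 alone held TGACTAA or ACGTG, Edn1 and Nppb held AGATAA, and 5 held TATAAA. Npr2 is not among these entries. A match describes letters and is not a bound site.

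Adm, the other ligand gene with clear RNA, was not shown to change. The fitted mean of Adm was 3537 normalized counts with bufalin and 2765 in control cells, a fold of 1.28 (interval 0.727 to 2.25), and 2979 with periplocin against 2679 in control cells, a fold of 1.11 (interval 0.710 to 1.74). In the authors' deposited table the log2 changes were 0.35 ± 0.42 (SE) with bufalin, adjusted p 0.833, and 0.15 ± 0.33 with periplocin, adjusted p 0.9999, by the DESeq2 test. The bufalin minus periplocin difference of Adm was 0.20 (interval -0.53 to 0.94, log2), so neither a difference nor likeness was shown.

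Among the 6 members with a mean of at least 10, Adm had the widest intervals. Its standard error with bufalin exceeded that of 99.7% of the 3050 genes whose mean lay within a factor of 2, and 7 of them had a larger one. With periplocin it exceeded 99.6% of 3100 such genes, and 11 had a larger one. Expressed as a spread between libraries beyond counting noise, worked out from the standard errors, this was 35.2% for Adm in the bufalin table, against a median of 6.40% for genes of like mean, and 28.0% in the periplocin table, against 5.69%. Both tables contain the same control libraries, so they are not separate measurements of this spread. Which of the libraries differed cannot be read from these tables. The spread of the other 5 measured members ran from 5.39% for Ece1 to 14.1% for Ednra in the bufalin table and from 3.52% to 11.8% for the same genes in the periplocin table.

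**Figure D2:**
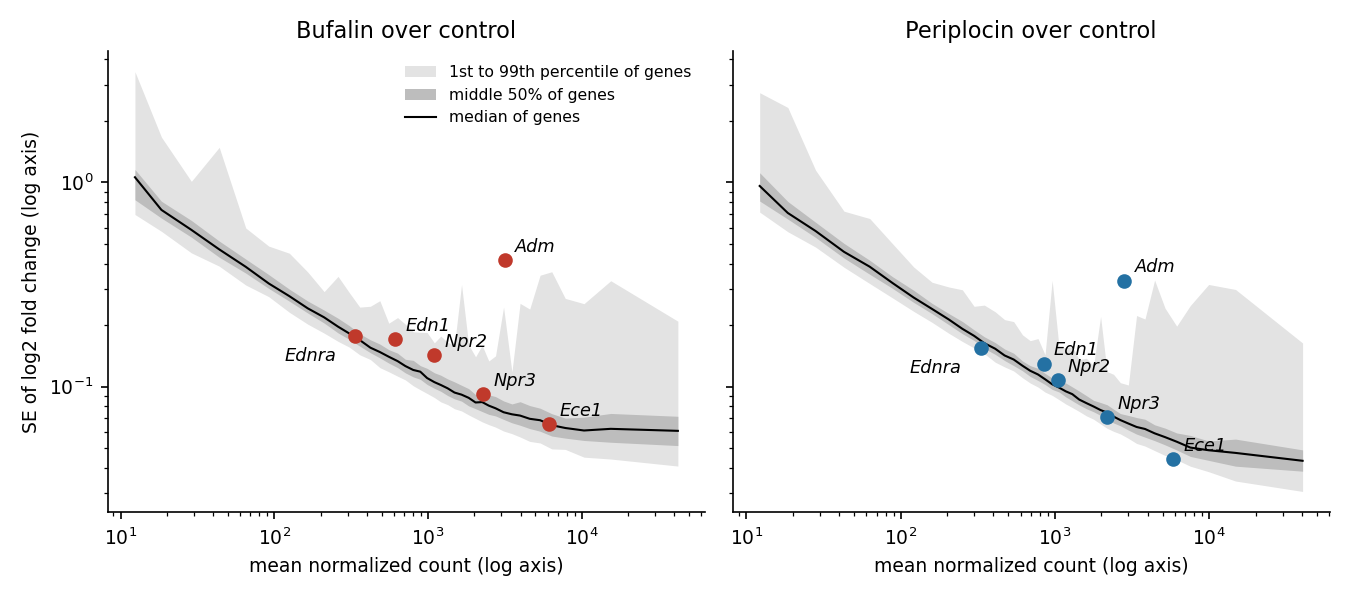
Standard error of the log2 fold change against the mean normalized count, both on log axes, for the members (points) and for all genes with a mean of at least 10 (median line and bands). Adm lies above the 99th percentile in both tables, and the other members lie below that percentile.

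RNA of the natriuretic ligands was near or at the floor of detection. Nppa, the precursor of atrial natriuretic peptide, had a fitted mean of 7.55 normalized counts with bufalin and 3.33 in control cells, and 5.69 with periplocin against 3.21 in control cells. Its fold intervals ran from 0.156 to 32.9 with bufalin and from 0.123 to 25.4 with periplocin, so a change in either direction was not shown at these low counts. Nppb, the precursor of brain natriuretic peptide, was listed at 0 in both tables, which cover 9 libraries of the 3 conditions. A count of 0 allows up to 3 normalized counts in all of these libraries together, for counting error only.

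The receptors and the converting enzyme of the endothelin system did not follow Edn1 past the test. Ednra, the receptor through which endothelin-1 constricts, had a fitted mean of 322 normalized counts with bufalin and 353 in control cells, a fold of 0.914 (interval 0.718 to 1.16). With periplocin it was 320 against 341 in control cells, a fold of 0.937 (interval 0.761 to 1.15). Ece1, which releases the active peptide, stood at 6095 with bufalin against 6107 in control cells, a fold of 0.998 (interval 0.913 to 1.09). With periplocin Ece1 stood at 5691 against 5917 in control cells, a fold of 0.962 (interval 0.906 to 1.02). The Ece1 intervals were the narrowest among the members with a p-value.

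Neither natriuretic receptor was shown to change with either compound. Npr2, the guanylyl cyclase receptor that prefers C-type natriuretic peptide, had a fitted mean of 1132 normalized counts with bufalin and 1058 in control cells, a fold of 1.07 (interval 0.882 to 1.30). With periplocin it stood at 1057 against 1025 in control cells, a fold of 1.03 (interval 0.891 to 1.19). Npr3, the clearance receptor, stood at 2319 with bufalin against 2225 in control cells, a fold of 1.04 (interval 0.920 to 1.18). With periplocin Npr3 stood at 2197 against 2155 in control cells, a fold of 1.02 (interval 0.926 to 1.12). Between the compounds, the 95% intervals of the bufalin minus periplocin difference were -0.36 to 0.29 for Ednra, -0.06 to 0.16 for Ece1, -0.19 to 0.30 for Npr2 and -0.13 to 0.19 for Npr3 (log2).

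The angiotensin members were scarcely present. Agtr1a, which encodes the main rat receptor for the constrictor action of angiotensin II, was listed at 0 in both tables. Ace was listed at 0 in the bufalin table, which includes the control libraries, and had a mean of 2.35 in the authors' deposited table for periplocin. Its counts there therefore came from the periplocin libraries, with a mean of 4.69 normalized counts, or 14.1 summed over 3 libraries. The 95% interval of its fitted fold ran from 0.779 to 857, and the adjusted p in the authors' deposited table was 0.801 by the DESeq2 test, so a change of Ace was not shown. In all, 358 genes were at 0 in the bufalin table and above 0 in that of periplocin.

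Over the list, 1 of 8 members with an adjusted p was called with periplocin, against a background of 0.538% of 12445 genes. With bufalin 0 of the 3 members with an adjusted p were called by the DESeq2 test, where 0.301% of 3321 genes were. After adjustment over every gene with a p-value, 0 of 7 members passed with bufalin and 0.0932% of 12876 genes did, and 0 of the 7 had an unadjusted p under 0.05, beside 644 of all 12876 genes with a p. Between the compounds 1 of 6 members with a mean of at least 10 in both tables passed, against 0.396% of 10602 genes. In each case the 1 member was Edn1, whose result was known when the list was drawn up.

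The other genes of these systems formed a list of 70, of which 30 had a mean of at least 10. With bufalin 0 of the 37 with a p were called after adjustment over every gene with a p-value, beside 0.0932% of 12876 genes. The authors' adjusted p-values for bufalin are filled in only above a mean of 2259, and none of these genes had one under 0.05. By unadjusted p, 2 of the 37 were under 0.05, Rgs2 and Anpep, beside 644 of all 12876 genes with a p. With periplocin 1 of the 38 with a p was called by the DESeq2 test, Rgs2, beside 0.538% of 12445 genes with an adjusted p. An unadjusted p under 0.05 was found for 2, Rgs2 and Gna12, beside 806 of all 12906 genes with a p. Anpep, an aminopeptidase gene named after its value was seen, had a mean of 4.43 in the authors' deposited table for bufalin. Rgs2 encodes a brake on the Gq proteins that carry the signal of endothelin and angiotensin receptors. Its fitted mean was 1476 normalized counts with periplocin and 1006 in control cells, a log2 change of 0.55 ± 0.10 (SE) with an adjusted p of 5.62e-05 in the authors' deposited table. With bufalin the fitted mean of Rgs2 was 1298 against 1038 in control cells, a log2 change of 0.32 ± 0.13 in the authors' deposited table, with an unadjusted p of 0.0106, or 0.759 when adjusted over every gene with a p-value. The bufalin minus periplocin difference of Rgs2 was -0.23 (interval -0.46 to -0.01, adjusted p 0.761), so the compounds were not shown to differ in it.

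Of the 30 genes with a mean of at least 10, 13 were above and 17 below 0 with bufalin, with a median log2 change of -0.03, beside 0.00 over all 10674 genes tested. With periplocin 16 were above and 14 below 0, with a median of 0.01, beside -0.00 over 10688 genes. None of the 30 differed between the compounds at an adjusted p of 0.05 in the approximate Wald test, beside 0.396% of 10602 genes. In that test 1 had an unadjusted p under 0.05, which was Rgs2, beside 6.34% of all genes tested.

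In the endothelin system Edn2, Edn3 and Ednrb were listed at 0 (named after their values were seen), and Ece2, a second converting enzyme, stood in the authors' deposited table at -0.25 ± 0.20 with bufalin and -0.23 ± 0.23 with periplocin (SE, log2). Of the natriuretic system, the precursor protease Furin stood at -0.09 ± 0.10 with bufalin and -0.04 ± 0.08 with periplocin, and Mme, the peptidase neprilysin, at 0.05 ± 0.07 with bufalin and 0.02 ± 0.06 with periplocin, per the authors' deposited table. Npr1, the receptor for the products of Nppa and Nppb, had a mean of 0.889 in the authors' deposited table for bufalin and was listed at 0 in that for periplocin. With bufalin, Calcrl, the receptor of adrenomedullin, stood at -0.17 ± 0.25, its partner Ramp3 at 0.07 ± 0.30 and the scavenger receptor Ackr3 at -0.06 ± 0.12 in the authors' deposited table. With periplocin the authors' deposited table gave 0.05 ± 0.24 for Calcrl, -0.32 ± 0.31 for Ramp3 and 0.05 ± 0.09 for Ackr3. None of these genes passed the test.

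Of the 13 other genes of the angiotensin system, 7 had a mean of at least 10, and the 3 with the highest means are given. Lnpep, a membrane aminopeptidase, stood at 0.11 ± 0.09 with bufalin and -0.02 ± 0.08 with periplocin, and Atp6ap2, the prorenin receptor, at -0.13 ± 0.09 with bufalin and -0.09 ± 0.09 with periplocin (SE, log2), per the authors' deposited table. Prcp, a carboxypeptidase that cleaves angiotensin II, was given in the authors' deposited table at -0.10 ± 0.10 for bufalin and -0.11 ± 0.09 for periplocin. The bradykinin receptor Bdkrb2 stood at 0.22 ± 0.25 with bufalin and 0.39 ± 0.21 with periplocin, and Bdkrb1 at -0.17 ± 0.36 with bufalin and -0.22 ± 0.35 with periplocin, both from the authors' deposited table. For bufalin the authors' deposited table gave -0.09 ± 0.07 for the vasopressin receptor Avpr1a, -0.10 ± 0.33 for the receptor Vipr2 and 0.30 ± 0.55 for the peptide gene Apln. For periplocin the authors' deposited table gave -0.04 ± 0.06 for Avpr1a, -0.09 ± 0.36 for Vipr2 and 0.12 ± 0.99 for Apln. The vasopressin receptor Avpr2, with a higher mean than Apln in the periplocin table only, stood at 0.03 ± 0.62 with bufalin. With periplocin it stood at 0.95 ± 0.50, with an unadjusted p of 0.0575 and an adjusted p of 0.778 by the DESeq2 test. Its bufalin minus periplocin difference was -0.91 (interval -2.00 to 0.17, log2). Downstream, the phospholipase genes Plcb3 and Plcb4 stood in the authors' deposited table at 0.08 ± 0.06 and -0.02 ± 0.09 for bufalin, and at 0.07 ± 0.05 and 0.10 ± 0.08 for periplocin. The G protein gene Gna12 stood at -0.07 ± 0.06 with bufalin and -0.12 ± 0.05 with periplocin there, and none of these was called in the authors' deposited table.

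**Figure D3:**
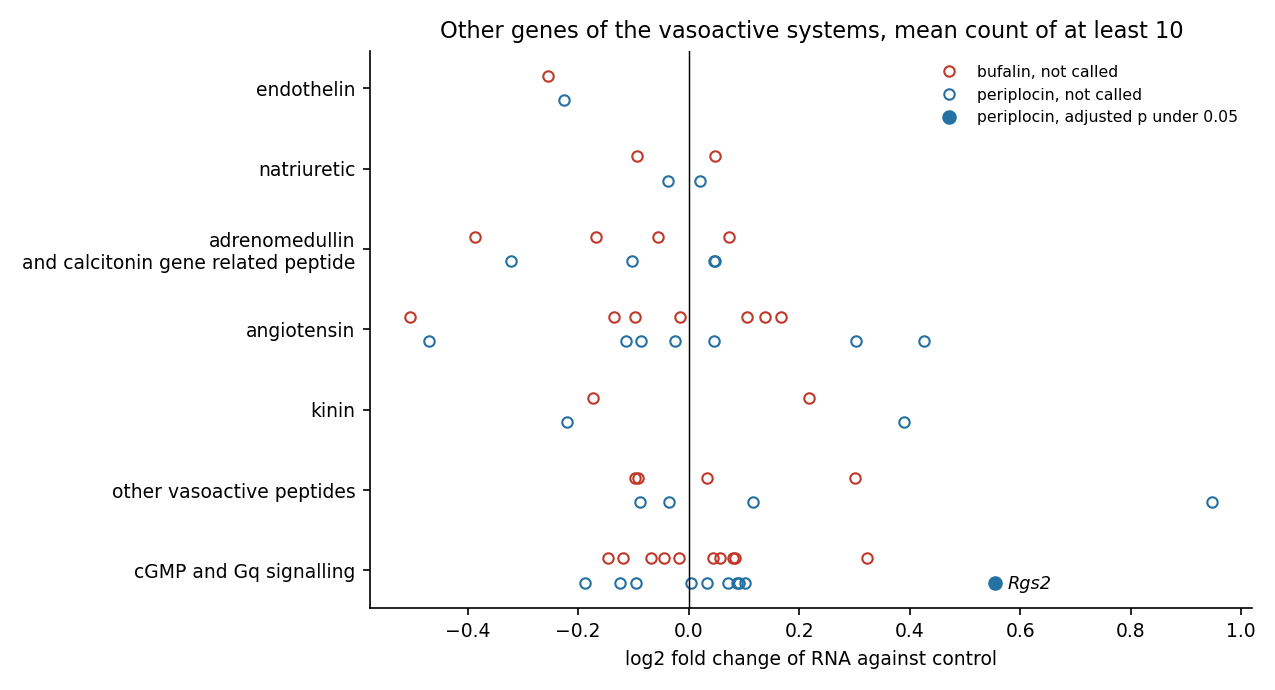
Log2 fold change of RNA against control for the 30 other genes with a mean count of at least 10, by system, bufalin above periplocin. Rgs2 with periplocin is the only filled point, and open points are genes without an adjusted p under 0.05, including those with none deposited.

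The genes closest to Edn1 in the plane of the 2 log2 changes, over 8969 other genes with a mean of at least 100, were Egr2 and Dusp1, both immediate early genes, Vof16, Lnc215 and Dcaf11. Likeness is the Euclidean distance over the 2 comparisons, which share their control libraries, and was 0.18 for Egr2, 0.19 for Vof16, 0.21 for Lnc215, 0.22 for Dusp1 and 0.23 for Dcaf11. Their log2 changes ran from -0.35 to -0.09 with bufalin and from 0.49 to 0.87 with periplocin. The standard errors with bufalin and periplocin were 0.37 and 0.31 for Egr2 and 0.31 and 0.28 for Lnc215, larger than their distances. Those of Vof16, Dusp1 and Dcaf11 were smaller than their distances. They were chosen by these values, so no test is given.

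The m6A peak lists held 5 peaks on 3 members for bufalin and 4 peaks on 3 members for periplocin. Of the 6 members with a mean of at least 100, 3 had a peak in each list, beside 55.2% of 9148 genes and 52.7% of 9123 genes of that level. Edn1 and Adm had peaks in both lists, Ednra in the bufalin list and Npr3 in the periplocin list, and no peak of Ece1 or Npr2 was listed. Whether a peak missing from one list reflects a change of the mark was not tested. Positions are on rn6, and the part of the transcript they fall in was not analysed here.

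Edn1 had 1 peak, at chr17:22137919-22139393 on the minus strand in the bufalin list and chr17:22137820-22139393 in the periplocin list, in 2 blocks that sum to 101 and 200 bases. All 101 bases were shared. Its fold enrichment, the authors' value read as IP over input, was 1.76 in the bufalin list and 1.58 in that of periplocin, below the list medians of 1.82 and 1.81. The log2 change of the peak, whose direction the files do not state and which was read as treated over control, was given in the authors' deposited table as -0.33 (p = 0.312) for bufalin and -0.16 (p = 0.705) for periplocin. With periplocin, the Edn1 counts of the expression table thus rose while no change of its peak was called. The kind of library behind those counts is unknown, so RNA level and mark cannot be separated in them. Of all 9170 peaks in the periplocin list 4 were called, so a missing call does not show an unchanged mark.

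Adm carried the most enriched peak among the members. Its second peak, at chr1:175446467-175446665 in the bufalin list and chr1:175446516-175446665 in the periplocin list on the plus strand, had a fold enrichment of 2.77 in the bufalin list, above 92.5% of its peaks, and 2.63 in the periplocin list, above 90.4%. The authors' deposited table put its log2 change at 0.29 (p = 0.127) for bufalin and 0.32 (p = 0.0912) for periplocin. The first peak of Adm, at chr1:175446073-175446368 in both lists, had a fold enrichment of 1.73 and a change of -0.04 with bufalin, and 1.75 and 0.09 with periplocin. Ednra had 2 weak peaks in the bufalin list, at chr19:33988607-33988707 and chr19:33988857-33988957, with fold enrichments of 1.42 and 1.38 and changes of 0.00 and -0.03. Npr3 had 1 in the periplocin list, at chr2:61889102-61889200 on the minus strand, with a fold enrichment of 1.42 and a change of 0.12.

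No member peak was called at an FDR of the change under 0.05, 0 of 5 with bufalin and 0 of 4 with periplocin, and none had an unadjusted p under 0.05. The background called at that FDR was 0.0304% of 9866 peaks with bufalin and 0.0436% of 9170 with periplocin, and 3.04% and 3.37% of all peaks had an unadjusted p under 0.05. In the periplocin list 1 peak, on none of the genes described here, has a log10 p of -434, while the others reach -6.96. The authors' deposited table gave an FDR of 1 for each of the 9. The other genes of the systems had 17 peaks on 10 genes in the bufalin list and 12 on 7 genes in the periplocin list, of which 0 were called. Of these, 1 of the 17 and 0 of the 12 had an unadjusted p under 0.05, beside the same 3.04% and 3.37% of all peaks.

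**Figure D4:**
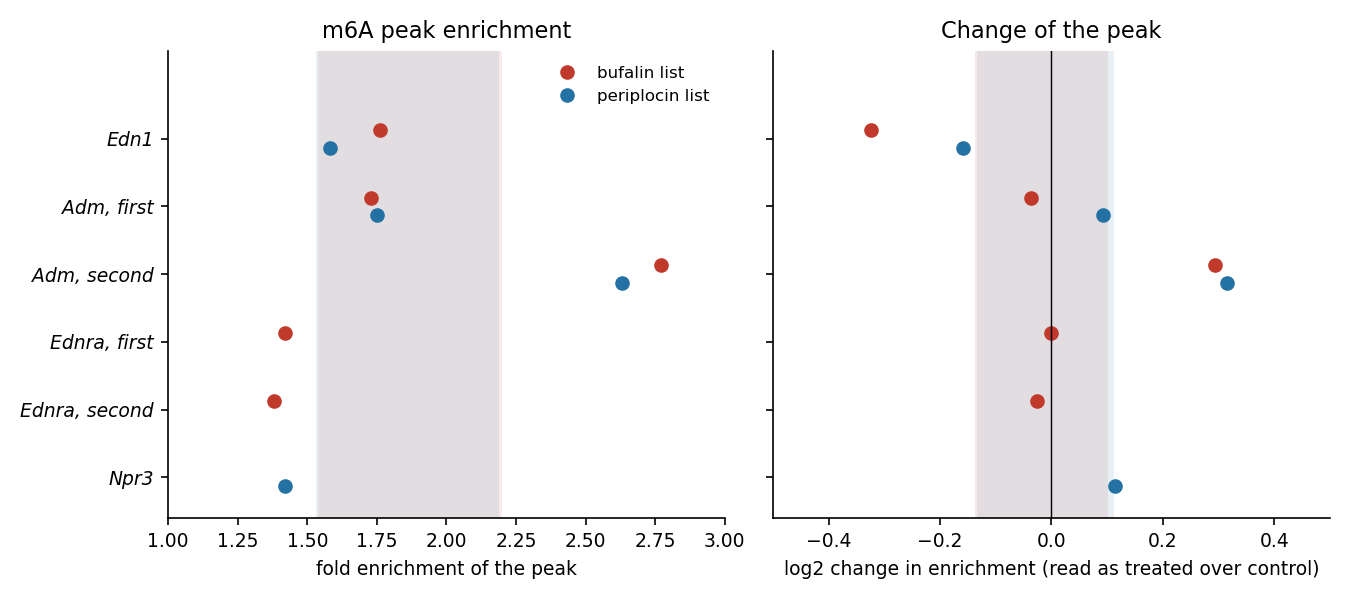
Fold enrichment (left) and log2 change in enrichment, read as treated over control (right), of the m6A peaks on Edn1, Adm, Ednra and Npr3 in the bufalin and periplocin lists. Shaded bands span the lower to the upper quartile of all peaks in each list, and the second Adm peak lies above them in both panels.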

How the data were processed

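RNA and m6A of bufalin-treated, periplocin-treated and control H9c2 cells were measured in 3 IP and 3 input libraries each. The submitters' processing notes name rn6, HISAT2, StringTie and DESeq; not given in the sources used here are their versions, the peak caller and the kind of library behind the expression tables (input or IP). The expression signal is the authors' mean of counts divided by size factors, per the file headers. The log2 fold changes, standard errors, Wald score and p-values are deposited by the authors as DESeq2 columns. The peak lists hold the authors' p-values, log10 p and FDR, a fold enrichment ratio and the log2 change, per the file headers. The log10 p of the change in the periplocin list was read like the bufalin column, although 1 peak lies at -434.

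Changes were read as treated over control: with both signs so, control means of the tables agree within 1% in all 10608 genes with a mean of at least 10, after an offset of 0.05 (log2). The Wald score of the periplocin table has the opposite sign in all 12913 genes, so signs follow the fold changes. Group means were computed from mean and fold change. The compounds were compared by approximate Wald tests of the difference between their log2 changes, adjusted over the 10602 genes whose mean reached 10 in both tables. The spread beyond counting noise was worked out from each standard error and taken as equal in treated and control cells. The control's own term was then left out, but the control libraries still enter the estimate of the spread for both compounds. This test of the difference was run on simulated counts, with standard errors set from the known spread. That run did not cover the error of estimating the spread from 3 libraries. Depth per library was not analysed here.

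Named genes were all members, called genes of the pathway list, up to 3 genes per system with the highest mean in each table, and the 5 genes closest to Edn1. The members and lists were chosen with earlier results of these data known. The plan for a fit on counts per sample could not be kept, since the files hold comparisons. RefSeq names (GRCr8) matched all 10 members and its promoters 9. Alternatives covered adjustment, filters, thresholds, standard errors and peak overlap. Computation used scipy 1.17.1, pandas 2.3.3 and numpy 2.4.6 in Python 3.11.15, and figures matplotlib 3.10.9.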

Additional observations from a re-analysis of the deposited data

Results flagged for a closer look

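Edn1 was the 1 member whose response differed between the compounds by the test of the difference itself, at -0.95 ± 0.15 (SE, log2; bufalin minus periplocin). The test is an approximation from the authors' standard errors, and the cause of the difference was not tested.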

How the results depend on the processing

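The 64 alternatives run for 24 results on single members, their peaks and their overlap changed no call. For RNA they altered only the adjustment, the filter or the standard error, so log2 changes and their directions were fixed. For calls of member peaks they only set narrower limits, and as no member peak was called at first, none could be gained or lost. The adjusted p of Edn1 with periplocin ranged from 6.29e-05 to 8.45e-05, and that of its bufalin minus periplocin difference from 3.61e-07 to 0.0120, the highest value being that under the upper limit of the standard error. Counts over all features moved by more than 1.5 times in 8 of 18 alternatives. An adjusted p under 0.1 gave 21 genes in place of 10 with bufalin and 101 in place of 67 with periplocin, and the upper limit of the standard error gave 8 in place of 42 between the compounds. Of the 3 bufalin peaks, 0 passed an FDR of 0.01, 1 had a fold enrichment of at least 4 and 1 had blocks of at least 200 bases. Of the 4 periplocin peaks, 1 and 0 met these last 2 limits. No paired analysis was possible because the deposited tables hold no values per library, and leaving out replicates and another normalization were not run for the same reason. The wide spread of Adm and the low counts of Nppa, Ace, Nppb and Agtr1a limit what these tables can show for them.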
